A study of Homo sapiens with 7 samples.

Results

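The beta-adrenergic and cyclic AMP pathway of human stem cell-derived cardiomyocytes was examined through 9 genes listed by name. The rule that lists them uses no measured value. They are the receptor ADRB1, the G protein gene GNAS, the adenylyl cyclases ADCY5 and ADCY6, the protein kinase A catalytic subunit PRKACA, the phosphodiesterases PDE3A, PDE4B and PDE4D, and the anchoring protein AKAP6. They make up 9 of the 60234 genes in the deposited expression table. All 9 reached a mean of 1 TPM over the 6 libraries compared and were tested among 15988 genes. TPM is a level per transcript length, relative to all transcripts of its library.

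Poly-A RNA was sequenced from cardiomyocytes grown from WTC-11, an established human induced pluripotent stem cell line, and matured for 35 days. The control group of 3 libraries had received a scrambled antisense oligonucleotide, and the other group one directed at MYH7B. An antisense oligonucleotide (ASO) is a short synthetic strand that pairs with a chosen RNA. Both ASOs were applied passively at 2 uM for 96 h. All libraries therefore come from 1 genetic background and from ASO-treated cells, and no untreated group was analysed. The MYH7B ASO group holds 4 libraries, of which replicates 2, 3 and 4 were compared with scrambled ASO replicates 1, 2 and 3. The deposited column of MYH7B ASO replicate 1 is out of register with the gene names. Its values are given below only after reordering. No label says that libraries of a group came from separate cultures, so p-values measure the spread between these samples, which may be technical.

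In heart muscle cells, noradrenaline and adrenaline bind beta-adrenergic receptors, which act through the stimulatory G protein on adenylyl cyclase to raise cyclic AMP. Cyclic AMP releases the catalytic subunits of protein kinase A, which phosphorylate calcium channels, calcium release channels, phospholamban and sarcomere proteins, so that the cell beats faster and with more force. Phosphodiesterases break cyclic AMP down, and anchoring proteins hold the kinase, its substrates and phosphodiesterases together in local compartments.

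PDE3A, a phosphodiesterase that hydrolyses cyclic AMP and is inhibited by cyclic GMP, fell in the MYH7B ASO libraries. Its mean level was 3.61 times lower, at 3.34 ± 0.541 TPM (SD, n = 3) against 12.1 ± 2.12 TPM (SD, n = 3). Of the 9 genes, 1 was called, that is, with a limma adjusted p under 0.05 over all tested genes. The other 8 genes did not pass, with log2 fold changes from -0.63 for PRKACA to 0.69 for ADRB1. Of all 15988 tested genes 1.66% were called, 1.48% as lower and 0.181% as higher. The median log2 fold change was -0.07 over the 9 genes and -0.04 over all tested genes. The groups of 3 libraries did not overlap for 2 of the 9 genes, ADRB1 (higher) and PDE3A (lower), while 21.2% of all tested genes had groups that did not overlap. ADRB1 met the filter of 1 TPM only through its MYH7B ASO libraries, which averaged 1.62 TPM against 0.668 TPM in scrambled ASO libraries. The authors' deposited table also had 1 of the 9 genes past an adjusted p of 0.05, PDE3A, while 8.71% of its genes with an adjusted p passed, 5.69% as lower.

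**Figure D1:**
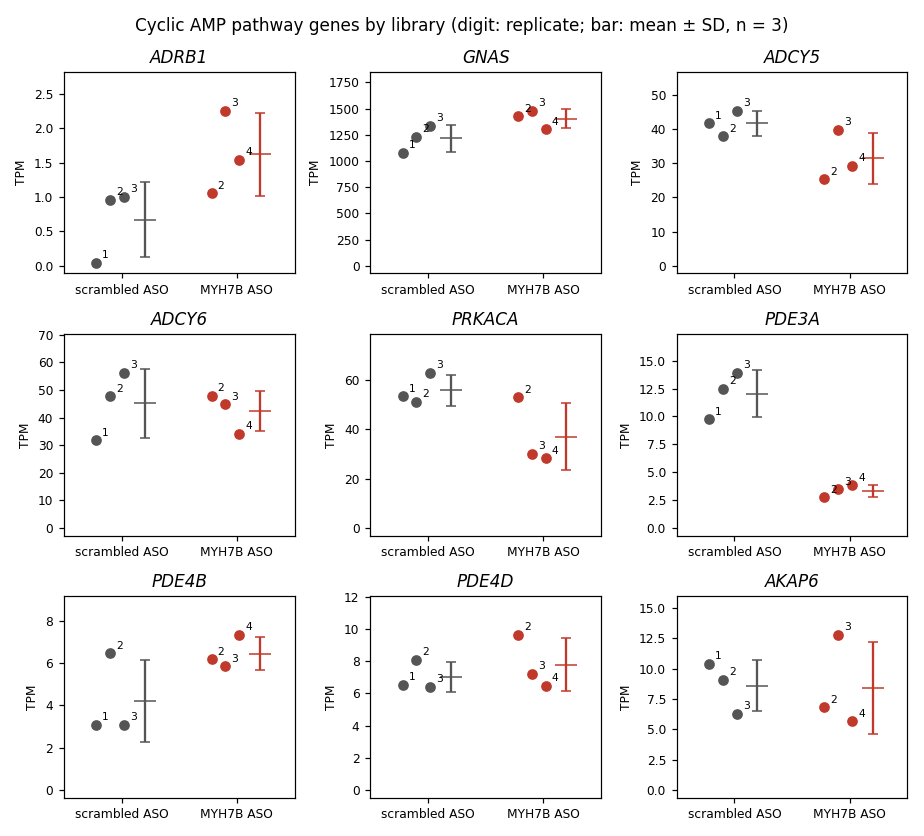
Level of each of the 9 genes in TPM (vertical axis, linear, a separate scale for each gene) in scrambled ASO (grey) and MYH7B ASO (red) libraries. Each point is 1 library marked with its replicate number, and bars are the mean ± SD of 3 libraries. PDE3A is the gene with the clearest gap, 9.75 to 13.9 TPM against 2.75 to 3.81 TPM, while GNAS, ADCY5, ADCY6, PRKACA, PDE4B, PDE4D and AKAP6 have groups that overlap.

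Libraries and cell identity were checked first. MYH7B, the ASO target, was lower in all 3 MYH7B ASO libraries, averaging 28.2 ± 7.25 TPM (SD, n = 3) in controls and 7.09 ± 1.94 TPM (SD, n = 3) in the targeted group (log2 fold change -1.85, SE 0.24, limma adjusted p 0.0109). That call was lost without MYH7B ASO replicate 4 (limma adjusted p 0.0618), without the filter on low values (0.0779) and with replicate 1 added, at 1.29 TPM (0.0525). All 10 cardiomyocyte markers averaged at least 1 TPM, with a summed level of 10132 to 10985 TPM in scrambled ASO and 8032 to 9387 TPM in MYH7B ASO libraries. None of the 10 was called. MYL7 was the largest part of that sum, at a mean of 5204.4 TPM in scrambled ASO and 4158.6 TPM in MYH7B ASO libraries. Of the 10 markers 8 had a log2 fold change below 0, 4 of them without overlap. Of all 15988 tested genes 8767 were below 0, and 14.1% were lower without overlap. MYH6 and NKX2-5 went the other way (0.14 and 0.39). MYH7 had the lowest log2 fold change of the 10 (-1.275, limma adjusted p 0.148). It was at 962.3 ± 371.5 TPM (SD, n = 3) against 393.8 ± 159.2 TPM (SD, n = 3), with overlapping groups. Of the 10 markers 6 had an unadjusted limma p under 0.05, beside 15.2% of all tested genes. The authors' deposited table had 1 of the 10, RYR2, past an adjusted p of 0.05, as lower. Markers of other cells were present too. The 5 smooth muscle markers summed to 955 to 1351 TPM against 564 to 739 TPM, with MYH11 called lower, and the 8 fibroblast markers to 2881 to 5173 TPM against 1344 to 2071 TPM, with COL1A2 and LUM called lower. The fibroblast sum is mostly collagen, and PDGFRA and TCF21 went the other way without overlap (log2 fold changes 0.60 and 0.71, not called by limma, and past an adjusted p of 0.05 as higher in the authors' deposited table). Of the 6 endothelial and 5 pluripotency markers, 2 each averaged 1 TPM. KDR averaged 7.87 and 8.50 TPM, and TEK 10.6 and 4.61 TPM without overlap (limma adjusted p 0.111). The 5 neuronal markers summed to 20.9 to 28.1 TPM against 17.1 to 26.5 TPM, with STMN2 called lower. The 5 epithelial or endoderm markers, nearly all KRT19, summed to 372 to 496 TPM against 537 to 576 TPM, and none was called. Endothelial VWF stayed at or below 0.307 TPM and CLDN5 at or below 0.153 TPM in these 6 libraries. PECAM1 and CDH5 reached 1.12 and 1.06 TPM, both in scrambled ASO replicate 2. Of the pluripotency genes, POU5F1 averaged 1.91 TPM and DPPA4 1.045 TPM over the 6 libraries. NANOG stayed at or below 0.186 TPM, SOX2 at or below 0.233 TPM and LIN28A at or below 0.383 TPM. The mitochondrial genome supplied 27.4% to 33.6% of the TPM in these 6 libraries and 17.2% in the reordered MYH7B ASO replicate 1, which also had the fewest genes at 1 TPM or more (14823, against 15290 to 16207). In such bulk samples, fewer cells of a type and less RNA per cell cannot be told apart.

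The receptor had the lowest level of the 9 genes. ADRB1 (ENSG00000043591.6, chromosome 10, 114044056 to 114046908, plus strand) encodes the beta-1 receptor, the main beta-adrenergic receptor of heart muscle. It was measured at 0.0407, 0.959 and 1.01 TPM in scrambled ASO replicates 1 to 3 and 1.06, 2.26 and 1.54 TPM in MYH7B ASO replicates 2 to 4. The MYH7B ASO libraries were all above the scrambled ASO libraries by a narrow margin, and scrambled ASO replicate 1 was close to 0. The fit gave a log2 fold change of 0.69 (SE 0.43, 95% interval -0.29 to 1.67) with a limma adjusted p of 0.499, so the test did not resolve a difference. Its size depended on 1 library and on the pseudocount, at 0.38 without scrambled ASO replicate 1, 1.59 with a pseudocount of 0.1 and 0.22 with one of 5. The reordered MYH7B ASO replicate 1 stood at 2.66 TPM. The authors' deposited table lists ADRB1 with a mean normalized count of 114.4, the lowest of the 9 genes, a log2 fold change of 0.43 and 0.281 as its adjusted p.

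The promoter window of ADRB1 is shown because its receptor opens the pathway and the window holds a half-site of the cyclic AMP response element (CRE), the DNA element bound by CREB, a transcription factor that protein kinase A activates. The sequence is the 250 bases before the RefSeq start on GRCh38.p14, chr10:114043616-114043865, plus strand, 5′ to 3′, with the half-site TGACG in capitals.
ADRB1: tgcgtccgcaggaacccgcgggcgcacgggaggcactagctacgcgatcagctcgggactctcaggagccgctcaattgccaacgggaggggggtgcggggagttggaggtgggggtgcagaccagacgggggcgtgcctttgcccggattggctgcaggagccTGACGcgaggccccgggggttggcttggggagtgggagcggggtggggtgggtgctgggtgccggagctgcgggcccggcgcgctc
Windows of the same length were searched before every RefSeq start listed, on both strands. TGACG or its reverse complement CGTCA was found in 21.2% of 35116 windows, in 51 of 201 windows of the wider pathway and in 6 of 27 windows of the 9 genes. The full element TGACGTCA, which contains the half-site, was in 1.65% of all windows and in 0 of those 27. Of the 9 genes, 8 had a window. Such a match is a run of letters, and binding was not measured.

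ADRB3, the beta-3 receptor, was at 0.471, 2.78 and 3.20 TPM in scrambled ASO and 4.05, 3.10 and 2.95 TPM in MYH7B ASO libraries (log2 fold change 0.60, limma adjusted p 0.548). ADRB1 and ADRB3 both had their lowest values in scrambled ASO replicate 1. The 2 most abundant receptors of the list were CHRM2, the muscarinic M2 receptor that lowers cyclic AMP through the inhibitory G protein, and ADORA1, the adenosine A1 receptor, which acts the same way. CHRM2 was at 17.1, 18.6 and 21.6 TPM against 25.4, 22.7 and 21.6 TPM, and ADORA1 at 13.1, 17.1 and 18.1 TPM against 19.0, 18.6 and 17.9 TPM. Neither passed the test (limma adjusted p 0.464 and 0.614).

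GNAS (ENSG00000087460.25, chromosome 20, 58839718 to 58911192, plus strand) encodes the alpha subunit of the stimulatory G protein and was the most abundant of the 9 genes. The libraries with scrambled ASO had 1080.1, 1228 and 1334.5 TPM (replicates 1 to 3), and those with MYH7B ASO 1425, 1479.9 and 1303 TPM (replicates 2 to 4). Only MYH7B ASO replicate 4 lay within the scrambled ASO range. The log2 fold change was 0.21 (SE 0.12, 95% interval -0.07 to 0.49, limma adjusted p 0.465). It dropped to 0.13 when scrambled ASO replicate 1 was left out. GNAS made up 88.5% to 91.4% of the summed TPM of the 7 stimulatory and inhibitory alpha subunit genes in each library. GNAI2, an inhibitory alpha subunit and the next most abundant, was at 94.7 ± 9.14 TPM (SD, n = 3) and 88.5 ± 6.63 TPM (SD, n = 3). The GNAS locus also makes other transcripts from upstream promoters, and the gene-level value does not separate them.

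Among the cyclases that make cyclic AMP, ADCY9 passed the test, and ADCY5 and ADCY6 did not. ADCY5 and ADCY6 are the calcium-inhibited adenylyl cyclases that predominate in heart muscle, and ADCY9 is a further membrane cyclase. ADCY5 (ENSG00000173175.14, chromosome 3, 123282296 to 123449758, minus strand) was at 41.6, 37.9 and 45.3 TPM in scrambled ASO replicates 1 to 3 and at 25.3, 39.7 and 29.2 TPM in MYH7B ASO replicates 2 to 4. MYH7B ASO replicate 3 lay inside the scrambled ASO range and the other 2 below it. Its fitted log2 fold change was -0.42 (SE 0.19, 95% interval -0.85 to 0.01, limma adjusted p 0.343). An unstranded count could hold reads of the antisense gene AC112503.1, which overlaps ADCY5 and averaged 6.41 TPM. Whether strand was used in counting is not given in the sources used here.

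ADCY6 (ENSG00000174233.11, chromosome 12, 48766194 to 48789037, minus strand) was at 31.7, 47.7 and 56.2 TPM in scrambled ASO libraries and 48.0, 44.7 and 34.2 TPM in MYH7B ASO libraries. The MYH7B ASO values all lay within the scrambled ASO range. Its log2 fold change of -0.07 (SE 0.23, 95% interval -0.60 to 0.46, limma adjusted p 0.919) changed sign when scrambled ASO replicate 3 or MYH7B ASO replicate 4 was left out. ADCY5 and ADCY6 held the first 2 places among the 10 cyclase genes in each of the 6 libraries. ADCY5 was ahead in scrambled ASO replicate 1 and ADCY6 in the other 5 libraries.

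ADCY9, which is not among the 9 genes, fell from a mean of 9.70 ± 0.891 TPM (SD, n = 3) to one of 4.51 ± 0.377 TPM (SD, n = 3). Single values were 8.70, 10.0 and 10.4 TPM in scrambled ASO libraries against 4.87, 4.54 and 4.12 TPM in MYH7B ASO libraries, with no overlap. The fitted difference was a log2 fold change of -0.96 (SE 0.18, limma adjusted p 0.0393). The call was lost in all 6 fits that left out 1 library, with adjusted p from 0.0721 to 0.167, and the reordered MYH7B ASO replicate 1 stood at 8.82 TPM, inside the scrambled ASO range. The authors' deposited table lists ADCY9 at a log2 fold change of -0.95, with 6.84e-09 as the adjusted p.

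PRKACA (ENSG00000072062.14, chromosome 19, 14091688 to 14118084, minus strand) encodes the main catalytic subunit of protein kinase A. It reached 53.4, 51.3 and 63.0 TPM in scrambled ASO replicates 1 to 3 and 52.9, 30.1 and 28.2 TPM in MYH7B ASO replicates 2 to 4. MYH7B ASO replicate 2 was level with the scrambled ASO libraries, and the other 2 were well below them. The fit gave a log2 fold change of -0.63 (SE 0.24, 95% interval -1.18 to -0.09), with an unadjusted limma p of 0.0283 and an adjusted p of 0.26. Of all tested genes 15.2% had an unadjusted p under 0.05. Without MYH7B ASO replicate 2 the adjusted p was 0.0779, still above the threshold, at a log2 fold change of -0.91. The reordered MYH7B ASO replicate 1 had 30.3 TPM, near replicates 3 and 4.

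PRKACB, the second catalytic subunit gene, was at 16.2 ± 2.06 TPM (SD, n = 3) and 9.95 ± 1.32 TPM (SD, n = 3), with groups that did not overlap and a limma adjusted p of 0.126. The authors' deposited table lists PRKACB as lower, at a log2 fold change of -0.546 with adjusted p 0.0294. PRKACA supplied 75.2% to 82.2% of the catalytic subunit TPM in each library, with ranges of 75.7% to 78.7% in scrambled ASO and 75.2% to 82.2% in MYH7B ASO libraries. The 2 most abundant genes of the kinase list, PKIG and PRKAR1A, were not called. PRKAR1A, a regulatory subunit that holds the catalytic subunits inactive, was at 136.8 ± 4.25 TPM (SD, n = 3) and 142.1 ± 16.3 TPM (SD, n = 3). PKIG, an inhibitor of the free catalytic subunit, was at 142.5 ± 13.9 TPM (SD, n = 3) and 142.0 ± 10.9 TPM (SD, n = 3).

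Of the 3 phosphodiesterases, PDE3A passed the test and PDE4B and PDE4D did not. PDE3A (ENSG00000172572.6, chromosome 12, 20369245 to 20684381, plus strand) was at 9.75, 12.5 and 13.9 TPM in scrambled ASO replicates 1 to 3, and at 2.75, 3.46 and 3.81 TPM in MYH7B ASO replicates 2 to 4. The highest MYH7B ASO value was below the lowest scrambled ASO value. The log2 fold change was -1.58 (SE 0.21, 95% interval -2.06 to -1.11, limma adjusted p 0.0109). With the reordered MYH7B ASO replicate 1, at 1.88 TPM, it was -1.73 with an adjusted p of 0.0133, and PDE3A was again the 1 gene of the 9 called, beside 1.07% of all genes in that fit of 7 libraries. The authors' deposited table lists it at a log2 fold change of -1.48, with 5.78e-13 as the adjusted p.

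The call for PDE3A was lost without MYH7B ASO replicate 4 (limma adjusted p 0.0507) and without the filter on low values (0.0779), while its log2 fold change stayed between -1.72 and -1.48 over the 6 fits that left out 1 library. PDE3A is also expressed in smooth muscle, and the smooth muscle marker MYH11 moved with it, at 70.1 ± 10.2 TPM (SD, n = 3) in scrambled ASO and 12.9 ± 4.54 TPM (SD, n = 3) in MYH7B ASO libraries (log2 fold change -2.41, limma adjusted p 0.00599). ACTA2 and TAGLN had log2 fold changes of -0.91 and -1.24, with groups that did not overlap, and were not called by limma. The authors' deposited table lists both as lower, with adjusted p 0.00463 and 1.26e-06. The 2 remaining smooth muscle markers had groups that overlapped or nearly met, CNN1 at 168.0 to 205.2 TPM against 192.0 to 228.2 TPM and LMOD1 at 20.4 to 21.4 TPM against 15.6 to 20.3 TPM. The part of smooth muscle cells in the PDE3A difference was not tested.

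PDE4B (ENSG00000184588.18, chromosome 1, 65792514 to 66374579, plus strand) encodes a cyclic AMP-specific phosphodiesterase that cardiac work places near the L-type calcium channel. It stood at 3.07, 6.45 and 3.08 TPM in scrambled ASO replicates 1 to 3 and 6.18, 5.84 and 7.32 TPM in MYH7B ASO replicates 2 to 4. Scrambled ASO replicate 2 lay among the MYH7B ASO libraries, and the other 2 control libraries at about the same lower level. Its fitted log2 fold change was 0.57 (SE 0.28, 95% interval -0.05 to 1.20, limma adjusted p 0.373). Leaving out scrambled ASO replicate 2 gave 0.86, and a pseudocount of 5 gave 0.33. The reordered MYH7B ASO replicate 1 had 6.97 TPM.

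PDE4D (ENSG00000113448.19, chromosome 5, 58969038 to 60522120, minus strand) encodes a related cyclic AMP-specific phosphodiesterase with many isoforms, found at beta receptors and at the calcium release channel. It was at 6.54, 8.11 and 6.40 TPM in scrambled ASO libraries and at 9.64, 7.23 and 6.47 TPM in MYH7B ASO libraries, with overlapping groups. Its log2 fold change of 0.12 (SE 0.20, 95% interval -0.34 to 0.59, limma adjusted p 0.822) changed sign without MYH7B ASO replicate 2. The interval includes changes of either sign, so equal levels are not shown. The antisense gene AC109486.2, which averaged 2.79 TPM, overlaps PDE4D.

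**Figure D2:**
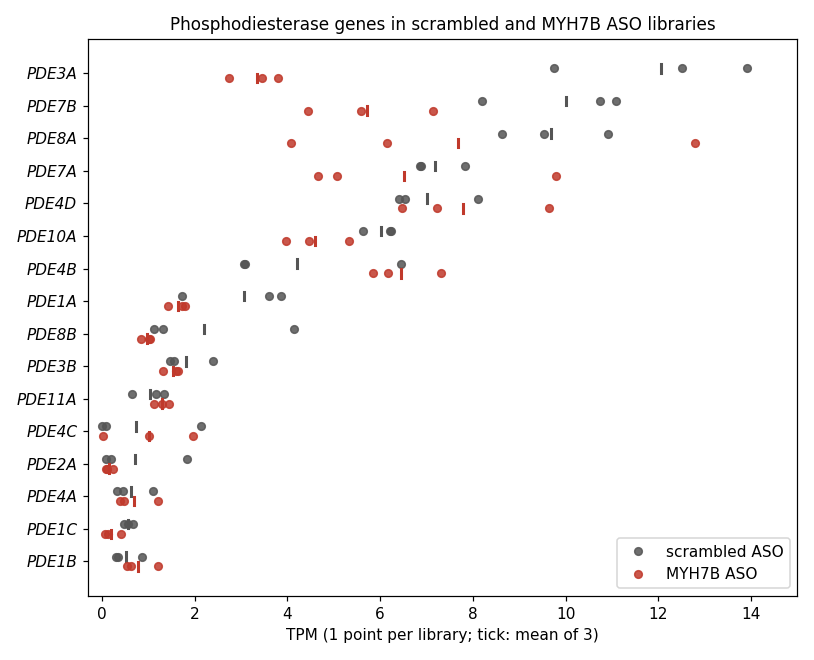
Level in TPM (horizontal axis, linear) of the 16 phosphodiesterase genes that hydrolyse cyclic AMP, ordered by their scrambled ASO mean. Each point is 1 library and each vertical tick the mean of 3, in grey for scrambled ASO and red for MYH7B ASO, with PDE3A at 12.1 TPM against 3.34 TPM on average.

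The order of the phosphodiesterases differed between the groups with these levels. PDE3A ranked second in scrambled ASO replicate 1 and first in replicates 2 and 3 among the 16 genes, and 7th in each of the 3 MYH7B ASO libraries. It made up 15.8%, 17.1% and 20.6% of the family's summed TPM in scrambled ASO libraries and 5.19%, 6.42% and 8.61% in MYH7B ASO libraries. PDE4D held 9.48% to 11.1% and 13.4% to 18.2%, and PDE4B 4.57% to 8.81% and 10.8% to 16.6%. PDE4D ranked second in all 3 MYH7B ASO libraries. The family sum was 61.8, 73.2 and 67.5 TPM against 53.0, 53.9 and 44.2 TPM. These shares restate the levels above and were given no test, and TPM of different genes does not measure enzyme activity.

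PDE8A and PDE7B, both cyclic AMP-specific, had the highest mean TPM of the list over the 6 libraries. PDE7B was at 8.19, 11.1 and 10.7 TPM against 4.46, 7.13 and 5.59 TPM, with groups that did not overlap and a limma adjusted p of 0.163. In the authors' deposited table PDE7B was lower, at a log2 fold change of -0.591 with adjusted p 0.0364. PDE8A was at 10.9, 8.62 and 9.53 TPM against 6.15, 12.8 and 4.08 TPM, with overlapping groups.

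Promoter windows of PDE3A and PDE4B are shown together because these 2 phosphodiesterases had log2 fold changes of opposite sign, of which PDE3A alone was called. Both are 250 bases before a RefSeq start on GRCh38.p14, plus strand, 5′ to 3′, at chr12:20571829-20572078 for PDE3A and chr1:65792260-65792509 for PDE4B. Neither holds the CRE half-site on either strand. Neither holds the muscle M-CAT element, searched as GGAATG on both strands, so no base is in capitals.
PDE3A: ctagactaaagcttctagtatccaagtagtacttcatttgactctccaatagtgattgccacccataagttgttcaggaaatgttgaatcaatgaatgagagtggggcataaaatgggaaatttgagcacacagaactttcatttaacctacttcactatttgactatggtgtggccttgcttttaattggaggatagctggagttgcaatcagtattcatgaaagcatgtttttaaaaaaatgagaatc
PDE4B: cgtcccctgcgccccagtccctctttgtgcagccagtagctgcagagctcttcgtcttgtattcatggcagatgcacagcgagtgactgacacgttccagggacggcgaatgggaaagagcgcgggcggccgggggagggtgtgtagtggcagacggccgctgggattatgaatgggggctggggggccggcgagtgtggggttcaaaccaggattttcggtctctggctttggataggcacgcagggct
The PDE3A start listed lies 203 kb inside the GENCODE 29 gene, so this window is that of an internal start. The M-CAT letters were in 11.9% of all 35116 windows and in 2 of the 27 windows of the 9 genes. Absence of these letters says nothing about other sequence at either gene.

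AKAP6 (ENSG00000151320.11, chromosome 14, 32329273 to 32837681, plus strand) encodes the muscle anchoring protein mAKAP, which holds protein kinase A and a PDE4D isoform at the nuclear envelope. It had values of 10.4, 9.11 and 6.30 TPM in scrambled ASO replicates 1 to 3 and 6.81, 12.8 and 5.68 TPM in MYH7B ASO replicates 2 to 4. The groups overlapped, and both the highest and the lowest of the 6 values came from MYH7B ASO libraries. The fitted difference was a log2 fold change of -0.08 (SE 0.30, 95% interval -0.77 to 0.61, limma adjusted p 0.932). Its sign turned under quantile scaling, sample weights and 3 of the 6 fits without 1 library. The reordered MYH7B ASO replicate 1 had 1.93 TPM, below the other 6.

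**Figure D3:**
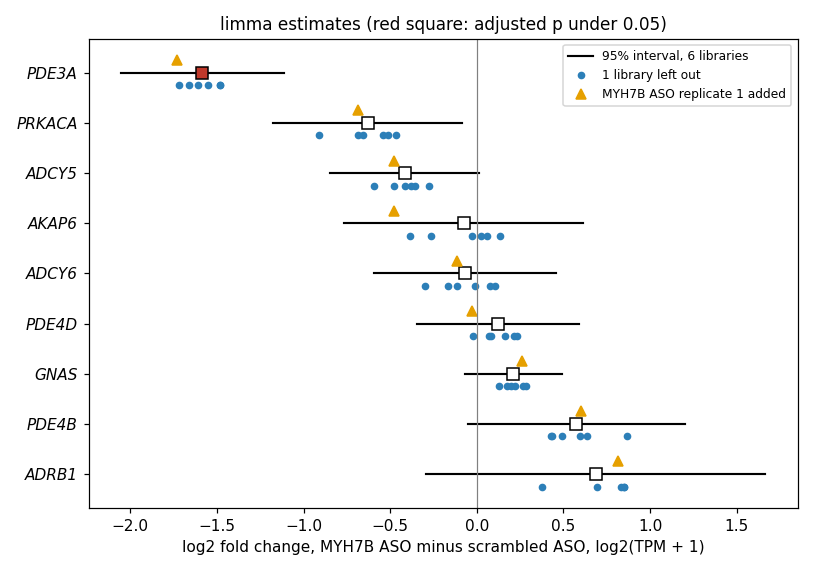
log2 fold change (horizontal axis, MYH7B ASO minus scrambled ASO on the log2(TPM + 1) scale) of the 9 genes, with squares and black lines for the limma estimate and 95% interval over 6 libraries, blue points for fits without 1 library and triangles for the fit with MYH7B ASO replicate 1 added. The interval lies below 0 for PDE3A (-2.06 to -1.11) and PRKACA (-1.18 to -0.09), and only PDE3A passed after adjustment.

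PDE4DIP, or myomegalin, a large scaffold protein that binds PDE4D, was the anchoring gene that was called. It fell from a mean of 272.4 ± 56.7 TPM (SD, n = 3) to one of 115.9 ± 16.2 TPM (SD, n = 3). The libraries were at 330.5, 269.4 and 217.3 TPM against 134.2, 110.4 and 103.2 TPM, without overlap (log2 fold change -1.21, SE 0.18, limma adjusted p 0.0173). PDE4DIP has near-identical copies on chromosome 1 between which reads can be split, so its level is uncertain. The call was lost in 4 of the 6 fits without 1 library, with the adjusted p at most 0.098, and held without scrambled ASO replicate 3 or MYH7B ASO replicate 2. It was also lost without the intensity trend (limma adjusted p 0.0658) and without the filter on low values (0.099). Adding the reordered MYH7B ASO replicate 1, at 46.65 TPM, lost it too (0.0733). AKAP8L, a nuclear anchoring protein and the second most abundant of that list, was at 75.4 ± 12.8 TPM (SD, n = 3) and 70.4 ± 6.83 TPM (SD, n = 3).

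The wider pathway was described with 11 lists by role that hold 112 genes, the 9 included, of which 95 were tested. In the pathway 4 genes fell and none rose in limma: PDE3A, ADCY9, PDE4DIP and CACNA1C. Over all tested genes 1.48% were called lower and 0.181% higher. At an unadjusted p under 0.05 there were 31 of the 95, against 15.2% of all tested genes. The median log2 fold change was -0.09, beside -0.04 for all tested genes, with 38 genes above 0 and 57 below. Groups did not overlap for 39 genes, 28 lower and 11 higher, beside 14.1% and 7.11% of all tested genes. Of the 103 genes other than the first 9, 86 were tested and 3 called.

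By role, no gene was called among 7 tested receptors, 7 receptor desensitisation genes, 7 G proteins, 10 protein kinase A genes, 5 other cyclic AMP effectors, 9 CREB factors and 9 CREB target genes. In these lists 1, 2, 1, 4, 3, 1 and 4 genes, in that order, had an unadjusted limma p under 0.05, beside 15.2% of all tested genes. In each of the lists of 6 cyclases, 11 phosphodiesterases, 13 anchoring proteins and 11 cardiac protein kinase A substrates, 1 gene was called lower, beside 1.48% of all tested genes. List medians ran from -0.44 for the cardiac substrates, with 10 of 11 genes below 0, to 0.39 for the CREB target genes, with 7 of 9 above 0. Of all tested genes 8767 were below 0 and 7221 above.

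**Figure D4:**
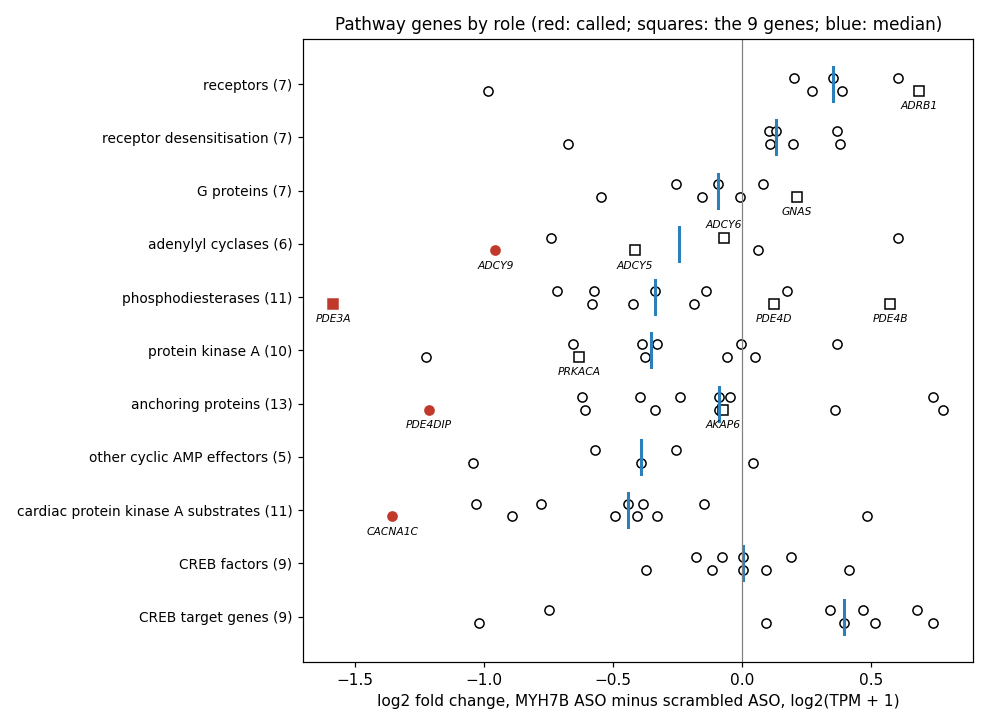
log2 fold change (horizontal axis, log2(TPM + 1) scale, MYH7B ASO minus scrambled ASO) of the 95 tested pathway genes by role, with the number tested in each list. Each mark is 1 gene, red where called, squares for the 9 genes and blue lines for list medians, and the 4 called genes lie at the low end of their lists.

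Among the cardiac substrates, CACNA1C, the pore subunit of the L-type calcium channel through which beta-adrenergic stimulation raises calcium entry, fell from a mean of 24.4 ± 7.01 TPM (SD, n = 3) to one of 8.90 ± 2.63 TPM (SD, n = 3). Its libraries were at 23.8, 31.7 and 17.8 TPM against 11.9, 7.05 and 7.74 TPM. The fit gave a log2 fold change of -1.36 (SE 0.26, limma adjusted p 0.0446), and the call was lost in all 6 fits without 1 library, with adjusted p from 0.0503 to 0.182. An unstranded count could also hold reads of the opposite-strand gene DCP1B, which overlaps CACNA1C and averaged 6.79 TPM. RYR2, the calcium release channel, did not pass, at 34.1 ± 5.95 TPM (SD, n = 3) and 16.3 ± 3.32 TPM (SD, n = 3) with a limma adjusted p of 0.0536. The authors' deposited table lists both as lower, CACNA1C at a log2 fold change of -1.13 (adjusted p 2.18e-06) and RYR2 at -0.845 (adjusted p 0.000232). RYR2 was chosen for mention after its values were seen.

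PLN, phospholamban, which restrains calcium uptake until it is phosphorylated, was at 970.5 ± 117.7 TPM (SD, n = 3) and 713.5 ± 81.1 TPM (SD, n = 3) with an adjusted p of 0.188 in limma. TNNI3, cardiac troponin I, was at 208.1 ± 15.8 TPM (SD, n = 3) and 161.9 ± 37.1 TPM (SD, n = 3), with an adjusted p of 0.372 in limma. For both genes the groups did not overlap. The sum of the cardiomyocyte markers, which include PLN and RYR2, was also lower in the MYH7B ASO libraries, though MYH6 and NKX2-5 of that list were not lower. The part of these markers in the differences was not tested.

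The most abundant genes of the remaining lists did not pass the test. GRK6, a receptor kinase, was at 18.6 ± 2.16 TPM (SD, n = 3) and 20.0 ± 1.14 TPM (SD, n = 3), and ARRB2, a beta-arrestin that uncouples phosphorylated receptors, at 16.3 ± 2.22 TPM (SD, n = 3) and 21.3 ± 1.32 TPM (SD, n = 3). POPDC2 and BVES, Popeye domain proteins that bind cyclic AMP, had log2 fold changes of -0.39 and -0.26 (limma adjusted p 0.178 and 0.496). CREM, a CREB family factor, and CRTC3, a CREB coactivator, had 0.41 and -0.12 (limma adjusted p 0.246 and 0.806). CITED2 and PER1, genes known as CREB targets, had 0.34 and 0.52 (limma adjusted p 0.448 and 0.445).

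Gene length was set beside the fold changes, since the 4 phosphodiesterase and anchoring genes among the 9 are long. PDE3A spans 315.1 kb, AKAP6 508.4 kb, PDE4B 582.1 kb and PDE4D 1553 kb in GENCODE 29. Of these 4 genes of at least 200 kb, 1 was called lower and 2 had a log2 fold change below 0. Of the 95 pathway genes 21 were that long and 3 of them were called lower, beside 9.71% of 1122 tested genes of at least 200 kb and 0.855% of 14730 shorter ones. Across genes Spearman's rho between span and log2 fold change was -0.31 over 15852 tested genes with a span, -0.33 over the 95 pathway genes and -0.08 over the 9. These genes share libraries and are not independent replicates, so rho is given as a description. The part of gene length in the PDE3A difference was not tested.

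**Figure D5:**
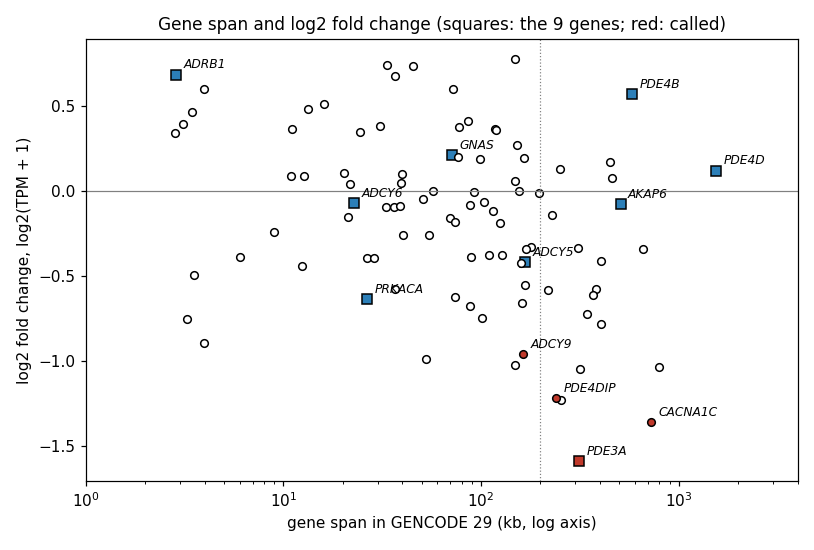
log2 fold change (vertical axis, log2(TPM + 1) scale) against gene span in kb (horizontal axis, log scale) for the 95 tested pathway genes, with squares for the 9 genes, red for called genes and a dotted line at 200 kb. PDE3A, at 315.1 kb, lies lowest at -1.58, while the longer PDE4B and PDE4D lie above 0.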

How the data were processed

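The authors deposited a TPM table of 60234 genes in 7 libraries and a comparison table of 25374 genes. Per the file headers, the authors' deposited comparison table holds for each gene a mean normalized count (a signal), a log2 fold change (shrunken, per the file name) and its standard error. It also holds a score from the test, its p-value and, for 15527 genes, the adjusted p-value, all as deposited. DESeq2 and GRCh38.p13 are named, with no role, in the submitters' processing notes. The aligner, quantifier and strand setting are not given in the sources used here, nor which libraries the comparison table used. Every TPM column sums to 1000000, which hides the depth, so counting error could not be given.

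The MYH7B ASO replicate 1 column fills 58721 of 60234 positions. Across genes it correlated with the other libraries at a median of 0.408 as deposited and 0.955 with its values assigned to sorted GENCODE 29 identifiers, so it was left out of the comparison and used, reordered, as an alternative.

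Genes averaging 1 TPM or more over 6 libraries were fitted with limma 3.58.1 (lmFit, eBayes with trend) in R 4.3.3 on log2(TPM + 1), with Benjamini-Hochberg adjustment over all 15988 genes. This scale understates changes of low genes. No count test was run. An exact permutation test of 3 against 3 cannot go below 0.1 and was not given. Replicate numbers share only 2 pairs among the 6 libraries, and no label says what they mark, so no block was used. Tables and plots were made with Python 3.11.15, pandas 2.3.3, numpy 2.4.6, scipy 1.17.1 and matplotlib 3.10.9.

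The rule for the 9 genes uses no measured value, but they and the lists were chosen with earlier results of these data known. The genes named are the 9, MYH7B, every called gene of the role lists, and in each role list the 2 tested genes with the highest mean TPM. ADRB3, PRKACB, RYR2, the marker genes and the further genes of the other observations were named outside this rule, after their values were seen. Gene positions, spans and overlaps come from GENCODE 29 on GRCh38, and promoter windows from RefSeq on GRCh38.p14. Alternatives were pseudocounts of 0.1 and 5, no filter or a minimum of 5 TPM, median-ratio and quantile scaling, removal of mitochondrially encoded genes, limma without trend, with robust variance or with sample weights, replicate blocks, each library left out, and MYH7B ASO replicate 1 added. A result from the lists is not reported here.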

Additional observations from a re-analysis of the deposited data

Results flagged for a closer look

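In groups of 4, with the reordered MYH7B ASO replicate 1 included, 12 genes (the 9 and the 3 other called pathway genes) were checked for single distant libraries with Dixon's ratio of gap to range. Chance alone flags about 1 in 20 such groups. PRKACA stood apart in MYH7B ASO replicate 2, at 52.95 TPM against 28.2 to 30.3 TPM in the other 3 libraries of its group. CACNA1C stood apart in the same library, at 11.91 TPM. ADCY9 stood apart in MYH7B ASO replicate 1, at 8.821 TPM against 4.12 to 4.87 TPM, and that library's column had been reordered.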

How the results depend on the processing

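Under every alternative run, PDE3A was lower in the MYH7B ASO libraries, with a log2 fold change from -1.82 (pseudocount 0.1) to -1.03 (pseudocount 5). Without the filter on low values limma called 40 of 32966 genes, 0 of the 9 (2 at an unadjusted p under 0.05) and 0 pathway genes (33 unadjusted), and without the intensity trend 150 genes and 1 pathway gene. Pseudocount 5 gave 2 pathway genes and a minimum mean of 5 TPM gave 7, with RYR2, HRH2 and PPARGC1A added. CACNA1C was not called with pseudocount 5, under either rescaling or with mitochondrially encoded genes removed. Adding MYH7B ASO replicate 1 gave 170 genes, 1.07% of those tested, and 2 pathway genes. With 1 library left out the counts ran from 53 to 149 genes, 0 to 1 of the 9 and 0 to 2 pathway genes. ADRB1 could not be tested without MYH7B ASO replicate 3, since its mean then fell under the filter. Quantile scaling turned the split of 29 higher and 236 lower genes into 55 and 202, and median-ratio scaling into 57 and 234.

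With a replicate block limma called 0 genes, 0 of the 9 and 0 pathway genes, both by title number (1718 genes, 1 of the 9 and 17 pathway genes at an unadjusted p under 0.05) and by description number (1096, 2 and 15). PDE3A then had log2 fold changes of -1.80 and -1.61 (adjusted p 0.331 and 0.72), and MYH7B -1.92 and -2.17 (adjusted p 0.331 and 0.72). The shared numbers gave correlations of 0.08 and 0.11 by title and -0.07 and -0.04 by description, and pairs with different title numbers ran from -0.07 to 0.04. With 2 pairs and no label on what a number marks, the numbers were not taken to pair the libraries. In the block fits only these 2 pairs inform the group difference, which leaves little power. The 0 calls therefore do not show that the genes called without a block were equal between groups.

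Genes that were not called changed sign in places. AKAP6 turned to 0.055 (quantile scaling), 0.047 (sample weights), 0.27 and 0.16 (replicate block by title and by description), and ran from -0.39 to 0.14 with 1 library left out. PDE4D turned to -0.066 (block by description) and -0.030 (MYH7B ASO replicate 1 added). With 1 library left out, ADCY6 ran from -0.30 to 0.10, PDE4D from -0.025 to 0.230, PKIG from -0.066 to 0.073, PRKAR1A from -0.043 to 0.103 and AKAP8L from -0.157 to 0.045. PKIG turned to 0.044 (median-ratio scaling), 0.023 (mitochondrial genes removed), 0.025 (sample weights), 0.014 and 0.000 (replicate block by title and by description) and 0.14 (MYH7B ASO replicate 1 added). GNAI2 turned to 0.05 with that library added, and PRKAR1A to -0.019 with the block by description. The cause of these changes was not tested.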

Other observations

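The authors' deposited table has 16 pathway genes past an adjusted p of 0.05, of 102 with a value, 4 higher and 12 lower, beside 8.71% of all its genes. The 4 higher were AKAP7 and AKAP12, anchoring proteins, PPP1R1A, an inhibitor of protein phosphatase 1 that protein kinase A activates, and NR4A3, an immediate early nuclear receptor. Their log2 fold changes in the authors' deposited table were 0.70 for AKAP7, 0.41 for AKAP12, 0.49 for PPP1R1A and 0.73 for NR4A3. None of these 4 was called in limma on TPM (adjusted p 0.153, 0.277, 0.226 and 0.358), and each had an unadjusted p under 0.05 except NR4A3, at 0.063. The 12 lower were PDE3A, ADCY9, PDE4DIP, CACNA1C, PDE7B, PRKACB, AKAP13, CACNB2, RRAD, PPARGC1A, RYR2 and HRH2, of which limma called the first 4. In the authors' deposited table AKAP13 was at -0.518 (adjusted p 0.0151) and CACNB2 at -0.604 (0.0322). RRAD was at -0.723 (0.000576) and PPARGC1A at -0.864 (0.000307). HRH2, the histamine H2 receptor, which also couples to the stimulatory G protein, had a log2 fold change of -0.82 there, with adjusted p 0.00068. Its TPM was 15.3, 20.1 and 15.2 in scrambled ASO libraries and 10.9, 7.07 and 6.48 in MYH7B ASO libraries, without overlap (limma adjusted p 0.0803). In this paragraph, genes outside the naming rule were chosen for mention after their values were seen.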
